A study of Mus musculus with 20 samples.

Results

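The common gamma chain family of cytokine receptors was followed through 8 genes: Il2rg, which encodes the shared chain, and Il21r, Il2ra, Il2rb, Il15ra, Il7r, Il4ra and Il9r, which encode the chains that give each receptor its ligand. The members were chosen by name, as the table rows carrying these symbols with the longest transcript standing for each gene, and they are 8 of the 23992 gene symbols measured. Il15ra was listed with 9 transcripts and Il9r with 2, and the longest transcript of every member was also the one with the most reads.

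RNA was sequenced from splenic CD8+ T cells of wild-type C57BL/6J mice aged 6 to 8 weeks. All cells, controls included, had first been activated through CD3 and CD28 with antibodies over 48 hours and rested overnight, so the unstimulated groups are activated cells without added cytokine and not naive cells. Murine IL-21 (mIL-21) or 21h10, a computationally designed IL-21 mimic, was then given for 24 hours. The labels give this time for the treated libraries and no time for the unstimulated ones. The study's legend for the lower doses names PBS-treated cells as the control, without a separate time. If the unstimulated cells were taken before these 24 hours, time in culture cannot be told apart from the cytokine in comparisons with them. Experiment 1 held unstimulated cells and doses of 100 pM and 1 nM of each cytokine, while in experiment 2 separate unstimulated cells stood beside doses of 10 nM and 100 nM, with 2 libraries in each of the 5 groups of an experiment (n = 2). The labels number the libraries of a group without naming a mouse or culture for each, while the study's methods describe its RNA-seq replicates in general as independent preparations or donors. The p-values rest on the spread between duplicates pooled over all 5 groups of an experiment, and not on that of the groups compared alone. The range of doses changed together with the experiment, and these cannot be told apart.

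The shared gamma chain forms part of the receptors for IL-2, IL-4, IL-7, IL-9, IL-15 and IL-21 and carries the kinase JAK3, whereas the ligand-specific chains, or the beta chain that IL-2 and IL-15 share, carry JAK1. Ligand binding brings the chains together, the kinases phosphorylate STAT transcription factors, and genes such as those of the SOCS family are switched on and dampen the signal. In CD8+ T cells these receptors set survival through IL-7, growth and effector differentiation through IL-2, memory upkeep through IL-15, and effector function through IL-21. Because all of them draw on the same gamma chain, the relative levels of the chains are of interest beside the level of each.

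The libraries held 44032447 to 110876981 mapped reads in experiment 1 and 40317113 to 57601125 in experiment 2, of which 36829350 to 94079673 and 27074399 to 43303144 fell on genes. Levels are given as RPKM, reads scaled to transcript length and to mapped reads, and can be compared between genes. Changes are log2 fold changes of counts (edgeR, quasi-likelihood), p-values were adjusted over all genes tested by the Benjamini-Hochberg method, and a call is an adjusted p under 0.05. These fold changes are scaled by TMM, which centres the median gene near 0. Scaling by mapped reads, as RPKM does, moved the median of all genes against unstimulated cells to between -0.12 and 0.075 in experiment 1 and between -0.32 and -0.19 in experiment 2. RPKM ratios in experiment 2 therefore run below the tested changes, and under that scaling 23.2 to 29.7% of the genes called were higher, against 48.7 to 50.3% with TMM. The summed RPKM of 6 CD8 T cell markers was 1057 to 1472 in unstimulated and 1193 to 1636 in treated libraries, while Cd4 stayed at or below 1.09. Foxp3 was at most 0.0428 in unstimulated cells and in experiment 1, and 0.292 to 0.696 in the treated cells of experiment 2. Ikzf2, the other regulatory T cell marker listed, went from 3.92 and 4.11 without cytokine to between 5.71 and 10.6 in experiment 1 and from 6.93 and 8.57 to between 1.95 and 3.10 in experiment 2. Of 5 myeloid markers, Lyz2, Csf1r and Cd14 were at most 0.232 in every library. Itgam, which activated lymphocytes can express too, lay higher in all treated libraries, and Cd68 in all of experiment 1. The sum of the 5 was thus 3.43 to 4.84 in unstimulated and 12.3 to 34.4 in treated cells, moving in the same direction as Il21r and Il7r. The sums of B cell, NK cell and erythroid markers were at most 10.5, 0.461 and 0.411, and the sum of dendritic markers, mostly Itgax, reached 7.50. The part of such cells in the results below was not tested.

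In the mouse genome (GRCm38, mm10), 4 of the members form close pairs on the same strand. Il2ra (chr2:11642792-11693194) ends 12.0 kb before Il15ra (chr2:11705172-11733985), and Il4ra (chr7:125552271-125579474) ends 23.8 kb before Il21r (chr7:125603252-125634397). Il7r (chr15:9506159-9529941) and Il2rb (chr15:78479256-78511621) share a chromosome at a great distance, and Il9r (chr11:32187544-32205283) and Il2rg (chrX:101264385-101268255) stand alone. These last 4 genes lie on the minus strand. In the GENCODE M21 annotation, 30.5% of the exonic bases of Il2rg are shared with Gm20489 on the same strand, so reads cannot be told apart there. On the opposite strand, 9.51% of the exonic bases of Il4ra overlap Gm44876, and whether the counting used strand is not given in the sources used here. Stretches of up to 158 bases of the 4412-base Il2ra transcript in that annotation match transcripts of Echs1, Olfr393, Olfr639 and Reep3 at 95.2 to 97.2% identity.

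RefSeq start-site windows (GRCm38.p6) were at hand for 7 members, with 2 windows for Il15ra. The bases upstream of the start sites are shown for Il21r, Il2ra, Il4ra and Il7r, the ligand-specific chains that were higher in nearly all treated groups, and for Il9r, which was lower, on the strand of the gene and cut to the longest stretch outside annotated exons. RefSeq puts the start sites of Il21r, Il7r and Il9r inside the transcripts used for the counts, and the Il9r window lies within the span of its longest transcript. Capitals mark the only match in these stretches to TTCNNNGAA, the palindrome (GAS) that STAT dimers bind.
Il21r, chr7:125603179-125603251, plus strand: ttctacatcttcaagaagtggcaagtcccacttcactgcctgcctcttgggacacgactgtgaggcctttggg
Il2ra, chr2:11642542-11642791, plus strand: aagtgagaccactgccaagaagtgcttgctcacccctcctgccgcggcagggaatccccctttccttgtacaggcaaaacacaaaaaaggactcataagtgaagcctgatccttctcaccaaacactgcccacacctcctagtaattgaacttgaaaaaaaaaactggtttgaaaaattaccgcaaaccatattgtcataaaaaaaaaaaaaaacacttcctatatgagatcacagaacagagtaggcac
Il4ra, chr7:125552021-125552119, plus strand: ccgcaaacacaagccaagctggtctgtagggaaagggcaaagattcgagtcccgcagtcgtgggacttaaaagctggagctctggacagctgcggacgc
Il7r, chr15:9529942-9530040, minus strand: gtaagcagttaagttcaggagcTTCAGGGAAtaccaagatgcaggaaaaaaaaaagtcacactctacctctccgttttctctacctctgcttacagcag
Il9r, chr11:32200280-32200529, minus strand: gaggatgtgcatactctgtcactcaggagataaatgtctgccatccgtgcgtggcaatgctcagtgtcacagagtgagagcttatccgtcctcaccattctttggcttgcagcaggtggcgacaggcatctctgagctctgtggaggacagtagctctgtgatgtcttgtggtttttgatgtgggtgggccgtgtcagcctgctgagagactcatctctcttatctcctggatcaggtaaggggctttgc
The full 250 bases upstream were searched on both strands in 32851 RefSeq windows. TTCNNNGAA was found in 7.02% of all windows and, among the 8 windows of the members, in that of Il7r alone. TGANTCA, the AP-1 motif, was found in 6.75% of all windows and in 1 of the Il15ra windows, 30 to 24 bases upstream. TTC and GAA spaced by 4 bases, the arrangement that STAT6 prefers, was in 5.85% and TCACACCT, a T-box motif, in 1.12%, and neither was in a member's window. The GC content of the upstream windows ranged from 42.4% for Il2ra and 44.0% for Il7r to 59.6% for Il4ra and 60.4% for the Il15ra window with the AP-1 match, against a median of 52.4% over all windows. A match or its absence in these letters says nothing on binding, which was not measured.

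To ask how IL-21 signalling bears on the family, each treated group was compared with the unstimulated cells of its experiment. In experiment 1, 7 of the 8 members passed the test with 100 pM mIL-21, where 77.7% of all genes tested passed, and 8 passed with 100 pM 21h10 (81.6% of all genes), 1 nM mIL-21 (80.1%) and 1 nM 21h10 (80.3%). In experiment 2, 7 members passed with 10 nM mIL-21 (46.2% of all genes), 10 nM 21h10 (50.1%) and 100 nM mIL-21 (46.2%), and 8 passed with 100 nM 21h10 (50.8%). With so many genes called, such counts say little about the family by themselves, and the sizes and directions are given member by member. The comparisons of an experiment share their unstimulated libraries, so they are set side by side here. The median log2 change of the members was 0.10, 0.32, 0.46 and 0.44 for the 4 comparisons of experiment 1 and 0.82, 0.79, 0.81 and 0.71 for those of experiment 2, in the order given, where the median of all genes was between -0.04 and 0. Il21r, Il2rg, Il4ra and Il7r were called higher in all 8 comparisons, Il2ra was called higher in 7 and lower in 1, and Il9r was called lower in 7.

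**Figure D1:**
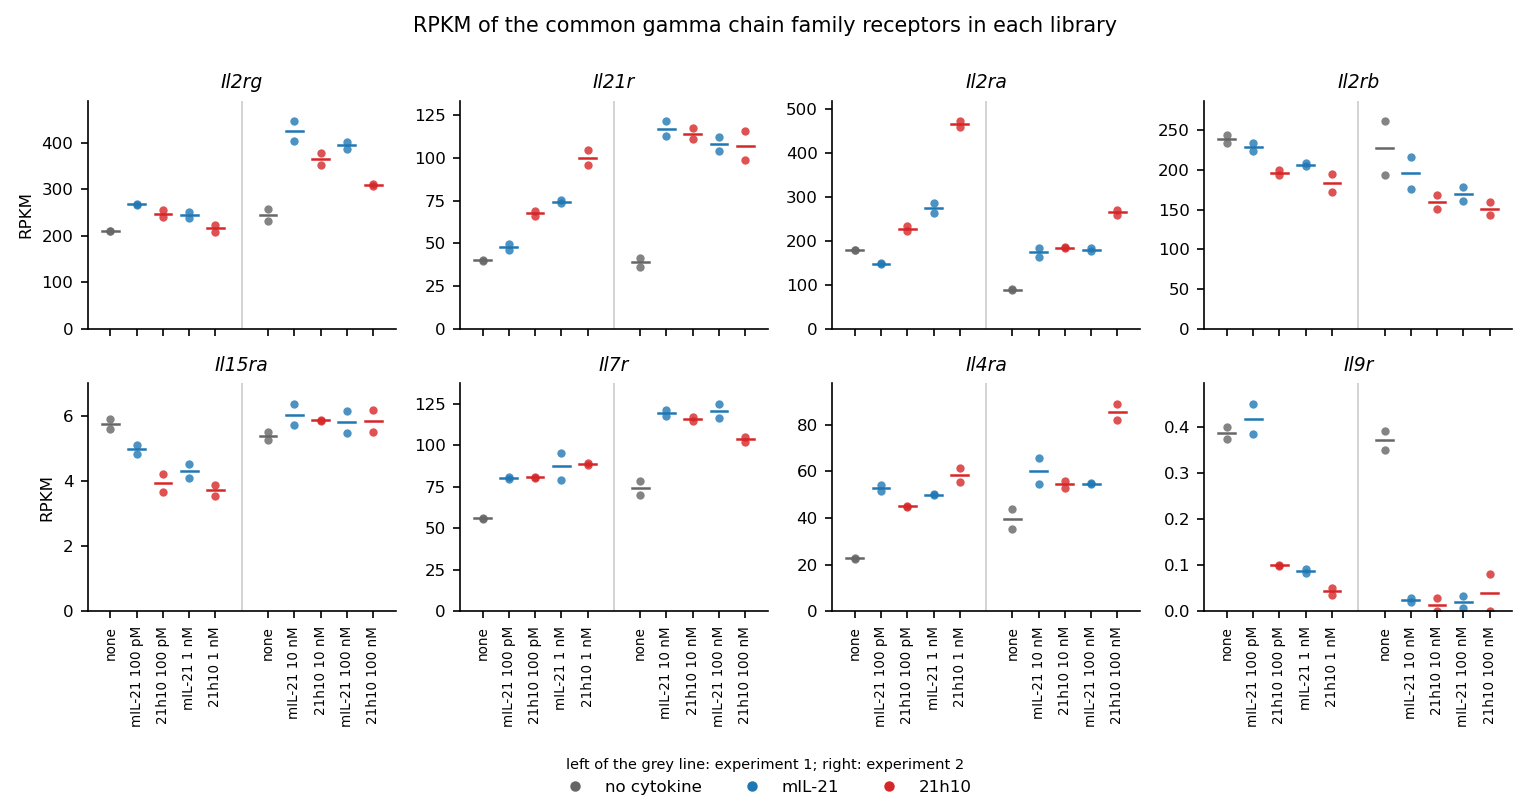
RPKM (vertical axes, linear from 0) of the 8 members in each of the 20 libraries, by group. Points are libraries, short lines the mean of 2, and the grey line separates experiment 1 from experiment 2. Il21r climbed in steps from 40 to 100 across experiment 1 and lay between 98.6 and 121 in all treated libraries of experiment 2.

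Il2rg, the shared gamma chain, was the member with the highest mean in 7 of the 10 groups and changed modestly in experiment 1 and more in experiment 2. Its RPKM was 209.1 in both unstimulated libraries of experiment 1, 268 and 267 with 100 pM mIL-21, 241 and 254 with 100 pM 21h10, 251 and 237 with 1 nM mIL-21, and 224 and 208.4 with 1 nM 21h10. Every treated library but 1, of 1 nM 21h10, was thus above the unstimulated cells. The log2 changes were 0.28 ± 0.0438 (SE; adjusted p = 1.78e-05), 0.27 ± 0.0437 (2.26e-05), 0.26 ± 0.0438 (3.53e-05) and 0.13 ± 0.0438 (0.0121). The last was not called when scaled by mapped reads (0.05, adjusted p = 0.447), nor without replicate 2 of the unstimulated cells or replicate 1 of 1 nM 21h10 (0.10 at the lowest). In experiment 2 it rose from 256 and 231 to 404 and 446 with 10 nM mIL-21, 377 and 352 with 10 nM 21h10, 387 and 401 with 100 nM mIL-21, and 312 and 307 with 100 nM 21h10. All treated libraries lay above both unstimulated ones, with log2 changes of 0.98 ± 0.0772, 0.85 ± 0.0771, 0.92 ± 0.0771 and 0.65 ± 0.0769 (adjusted p between 4.03e-08 and 4.95e-06). The groups with 21h10 at 1 nM and 100 nM had the least of it among the treated groups of their experiment.

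Il21r encodes the chain that mIL-21 and 21h10 both bind, and in experiment 1 it rose with the dose of either. In experiment 1 its RPKM was 40.1 and 39.9 without cytokine, 49.3 and 46.1 with 100 pM mIL-21, 65.9 and 69.1 with 100 pM 21h10, 75.0 and 73.4 with 1 nM mIL-21, and 104 and 95.8 with 1 nM 21h10. No 2 groups overlapped. The log2 changes against unstimulated cells were 0.18 ± 0.0471 (adjusted p = 0.00261), 0.78 ± 0.0467 (4.27e-11), 0.93 ± 0.047 (4.31e-12) and 1.40 ± 0.0472 (1.23e-14). The smallest of them was lost without replicate 1 of 100 pM mIL-21 (0.14, adjusted p = 0.0644). In experiment 2 the level was 41.2 and 36.4 without cytokine, close to that of experiment 1, and then 113 and 121 with 10 nM mIL-21, 117 and 111 with 10 nM 21h10, 112 and 104 with 100 nM mIL-21, and 116 and 98.6 with 100 nM 21h10. All treated libraries thus lay together between 98.6 and 121, at log2 changes of 1.77 ± 0.0827, 1.83 ± 0.0829, 1.70 ± 0.0826 and 1.77 ± 0.0827 (adjusted p between 4.54e-11 and 1.04e-10).

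Il2ra encodes CD25, the alpha chain that raises the affinity of the IL-2 receptor. Its RPKM in experiment 1 was 179 and 180.4 without cytokine, 149 and 148 with 100 pM mIL-21, 222 and 233 with 100 pM 21h10, 287 and 264 with 1 nM mIL-21, and 472 and 460.4 with 1 nM 21h10. It was thus the only member that fell with one treatment and rose with the others of the same experiment. The log2 change was -0.35 ± 0.0441 with 100 pM mIL-21 (adjusted p = 9.92e-07), 0.37 ± 0.044 with 100 pM 21h10 (5.58e-07), 0.65 ± 0.0441 with 1 nM mIL-21 (2.36e-10) and 1.46 ± 0.0448 with 1 nM 21h10 (3.73e-15). None of these calls was lost when a library was left out. The unstimulated cells of experiment 2 had less of it, 89.5 and 89.2. The level was 164 and 185 with 10 nM mIL-21, 186 and 183 with 10 nM 21h10, 177 and 183 with 100 nM mIL-21, and 272 and 259 with 100 nM 21h10. The first 3 groups lay between 164 and 186 and the last stood above them, with log2 changes of 1.14 ± 0.0776, 1.31 ± 0.0779, 1.23 ± 0.0778 and 1.87 ± 0.0791 (adjusted p between 2.15e-11 and 6.8e-09).

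Il2rb, the signalling beta chain of the IL-2 and IL-15 receptors, went the other way in experiment 1 while staying among the most abundant members. Its RPKM was 233.5 and 244 without cytokine, 233.4 and 224 with 100 pM mIL-21, 193.4 and 199.3 with 100 pM 21h10, 208.2 and 204.6 with 1 nM mIL-21, and 194.5 and 172 with 1 nM 21h10. All treated libraries were below both unstimulated ones, narrowly with 100 pM mIL-21. The log2 changes were small, at -0.14 ± 0.0497 (adjusted p = 0.0152), -0.26 ± 0.0496 (0.000124), -0.17 ± 0.0497 (0.00398) and -0.30 ± 0.0497 (2.5e-05). The first was lost when scaled by mapped reads (-0.06, adjusted p = 0.324) and without replicate 2 of either group (-0.12 at the weakest). In experiment 2 the unstimulated duplicates were far apart, 261 and 193.1, and the treated libraries ran from 143.1 to 216. The groups overlapped with 10 nM mIL-21 alone. With 100 nM 21h10 the change was -0.28 ± 0.109 (adjusted p = 0.0413), which was lost without replicate 1 of the unstimulated cells (-0.10, adjusted p = 0.437) or either library of 100 nM 21h10. The other 3 changes, -0.03, -0.24 and -0.20, did not pass (adjusted p = 0.843, 0.0782 and 0.156), and without replicate 2 of the unstimulated cells those with 10 nM 21h10 (-0.41) and 100 nM mIL-21 (-0.37) did. Both also passed when scaled by mapped reads, at -0.51 (adjusted p = 0.00262) and -0.42 (0.011), and in limma (adjusted p = 0.0165 and 0.0423), and the first without the filter on low counts (-0.24, adjusted p = 0.012).

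Il15ra, the high-affinity IL-15 chain that also presents IL-15 to other cells, was low throughout and differed in direction between the experiments. Its RPKM in experiment 1 was 5.62 and 5.92 without cytokine, 5.13 and 4.84 with 100 pM mIL-21, 3.66 and 4.22 with 100 pM 21h10, 4.54 and 4.11 with 1 nM mIL-21, and 3.89 and 3.56 with 1 nM 21h10. All treated libraries were below the unstimulated ones, with log2 changes of -0.29 ± 0.0821, -0.52 ± 0.0791, -0.38 ± 0.0833 and -0.55 ± 0.0844 (adjusted p = 0.00433, 1.05e-05, 0.000487 and 1.09e-05). Scaled by mapped reads, the first had an adjusted p of 0.0547. In experiment 2 the unstimulated libraries had 5.52 and 5.26 and the treated ones 5.48 to 6.38. The 4 log2 changes, 0.35, 0.40, 0.33 and 0.42 (SE 0.121 to 0.123, adjusted p between 0.00952 and 0.0344), were called with TMM, whereas with mapped reads they were 0.17, 0.12, 0.11 and 0.12 with adjusted p between 0.332 and 0.524. With mIL-21 at 10 nM and 100 nM the calls were lost without any single library of either group compared, at 100 nM also without replicate 1 of 10 nM 21h10 (adjusted p up to 0.156 and 0.21). With 21h10 they were lost without either library of the 10 nM group and without replicate 1 of the 100 nM group (adjusted p up to 0.0777 and 0.0787).

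Il7r, the IL-7 receptor alpha chain and a mark of long-lived T cells, rose in every treated group. In experiment 1 its RPKM was 56.0 and 56.2 without cytokine, 80.9 and 79.8 with 100 pM mIL-21, 80.5 and 81.1 with 100 pM 21h10, 95.6 and 79.4 with 1 nM mIL-21, and 88.2 and 89.4 with 1 nM 21h10. The groups with cytokine did not overlap the unstimulated cells, and among themselves the 100 pM groups overlapped, as did the spread duplicates of 1 nM mIL-21 with all others. The log2 changes were 0.44 ± 0.0567, 0.55 ± 0.0565, 0.68 ± 0.0568 and 0.75 ± 0.0568 (adjusted p between 1.18e-09 and 1.48e-06). In experiment 2 it was 70.0 and 78.9 without cytokine and then 117 and 121, 117 and 115, 125 and 116, and 105 and 102 with 10 nM mIL-21, 10 nM 21h10, 100 nM mIL-21 and 100 nM 21h10, in this order. The changes of 0.86 ± 0.085, 0.91 ± 0.0851, 0.92 ± 0.0851 and 0.78 ± 0.085 (adjusted p between 3.06e-07 and 2.1e-06) were called with every library left out in turn. Here and for the other members, more RNA per cell cannot be told apart from more cells of a kind that expresses the gene.

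Il4ra, the chain that IL-4 and IL-13 receptors have in common, rose sharply at the lowest dose. Its RPKM in experiment 1 was 22.6 and 22.9 without cytokine, 54.3 and 51.7 with 100 pM mIL-21, 44.8 and 45.2 with 100 pM 21h10, 49.8 and 50.4 with 1 nM mIL-21, and 61.6 and 55.7 with 1 nM 21h10. With 100 pM of mIL-21, Il4ra moved by 1.14 ± 0.0501 on the log2 scale (adjusted p = 7.93e-13), whereas Il21r moved by 0.18. The other changes were 1.01 ± 0.0498, 1.18 ± 0.0501 and 1.45 ± 0.0503 (adjusted p between 1.95e-14 and 2.91e-12). In experiment 2 the unstimulated cells already had 44.0 and 35.2, and the level was 54.7 and 65.6 with 10 nM mIL-21, 55.9 and 52.9 with 10 nM 21h10, 54.5 and 54.8 with 100 nM mIL-21, and 88.9 and 81.9 with 100 nM 21h10. The first 3 groups overlapped and the last stood apart, with changes of 0.78 ± 0.0923, 0.73 ± 0.0924, 0.69 ± 0.0923 and 1.41 ± 0.0935 (adjusted p between 5.49e-09 and 1.66e-05).

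Il9r, the IL-9 receptor chain, was close to the limit of detection and was the member with the largest relative fall. Its read counts in experiment 1 were 128 and 79 without cytokine, 64 and 61 with 100 pM mIL-21, 20 and 33 with 100 pM 21h10, 13 and 14 with 1 nM mIL-21, and 7 in both libraries of 1 nM 21h10, which is 0.374 and 0.399 RPKM in unstimulated cells and 0.0353 to 0.449 in treated ones. Per mapped read, unstimulated cells held 0.926 times the reads of the mIL-21 100 pM group (95% exact interval for counting error alone 0.738 to 1.17), 3.86 times those of 100 pM 21h10 (2.85 to 5.33), 4.45 times those of 1 nM mIL-21 (2.97 to 6.91) and 9.15 times those of 1 nM 21h10 (5.33 to 17.0). The fall was thus not seen with 100 pM mIL-21, the treatment with the smallest rise in Il21r, and the edgeR changes were 0.03, -1.93, -2.11 and -3.10 (SE 0.202 to 0.314; adjusted p = 0.904, 5.97e-07, 1.41e-06 and 6.03e-08). In experiment 2 the counts were 59 and 49 without cytokine and between 0 and 11 in treated libraries. The unstimulated excess was 15.4 times (7.56 to 36.7) and 24.6 times (9.35 to 92.1) at 10 nM of mIL-21 and 21h10 and 17.6 times (7.81 to 48.9) and 8.83 times (4.74 to 18.2) at 100 nM. The edgeR changes of -3.73, -4.29, -3.87 and -2.84 (SE 0.87 to 1.02, adjusted p between 0.00247 and 0.0129) rest on few reads. With 10 nM 21h10 the change was -8.56 without replicate 2 of that group and -3.39 without replicate 1, and with 100 nM 21h10 it was -8.57 without replicate 1 and -1.91 without replicate 2. The values of -8.56 and -8.57 come from fits in which the 1 library left in the group had 0 reads, and give no measure of size. The call with 100 nM mIL-21 was lost without its replicate 2 (adjusted p = 0.0598), and that with 100 nM 21h10 without its replicate 2 or replicate 1 of the unstimulated cells (adjusted p up to 0.0996).

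**Figure D2:**
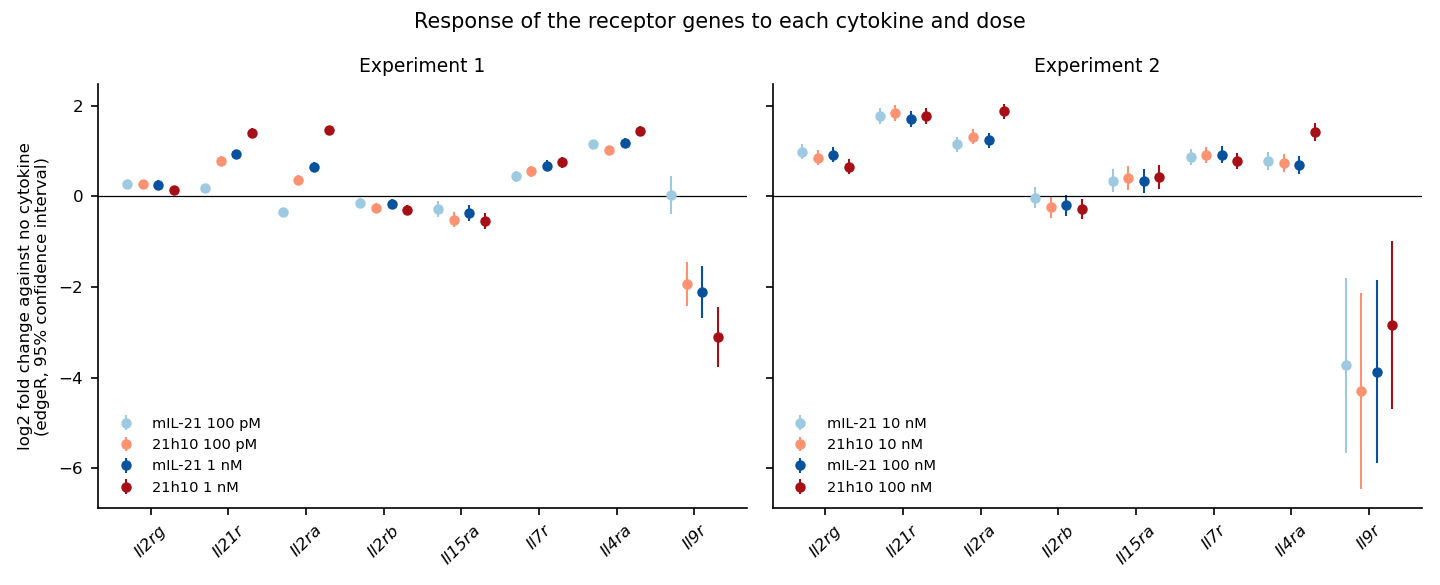
Log2 fold change of each member against the unstimulated cells of its experiment, with the 95% confidence interval, for the 4 treatments of experiment 1 (left) and experiment 2 (right). In experiment 1 the 4 treatments fan out for Il21r, from 0.18 to 1.40, and for Il2ra, from -0.35 to 1.46, whereas in experiment 2 the 4 Il21r values lie between 1.70 and 1.83.

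The design then asks whether 21h10 and mIL-21 act on these genes to the same extent at a matched dose. At 100 pM, 5 of the 8 members differed, against 38.6% of all genes tested. Il2ra was 0.72 ± 0.0442 higher on the log2 scale with 21h10 (adjusted p = 1.29e-09) and Il21r 0.60 ± 0.0469 higher (2.75e-08), and Il9r was 1.96 ± 0.248 lower, written as a change of -1.96 (8.28e-06). Il15ra and Il4ra differed by -0.23 ± 0.0848 (adjusted p = 0.0385) and -0.13 ± 0.0492 (0.0408), but without a filter on low counts neither was called (adjusted p = 0.0634 and 0.0702), nor was Il15ra with DESeq2 (0.0925). The Il15ra call was lost without any 1 library of the unstimulated cells, either library of 100 pM mIL-21 or replicate 1 of 100 pM 21h10 (adjusted p up to 0.215), and the Il4ra call without any 1 library of these 3 groups (up to 0.257). For Il2rg the difference was -0.01, with a 95% interval from -0.10 to 0.08, for Il7r 0.11 (-0.01 to 0.23) and for Il2rb -0.12 (-0.22 to -0.01, adjusted p = 0.0731). Il2rb passed without either library of 1 nM 21h10 or replicate 1 of 1 nM mIL-21, and Il7r without either library of 1 nM mIL-21, with differences that moved little (-0.12 and 0.11). In edgeR fits restricted to the groups compared, both passed, Il2rb at -0.11 (adjusted p = 0.00498) and Il7r at 0.11 (0.00306). Il2rb also passed in limma (-0.22, adjusted p = 0.00908). Scaled by mapped reads, the Il2rb difference was -0.22 (adjusted p = 0.00271), in a comparison whose median gene then moved to -0.11.

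At 1 nM, 4 members differed, against 37.7% of all genes. Il2ra was 0.81 ± 0.0442 higher with 21h10 (adjusted p = 2.55e-10), Il21r 0.48 ± 0.0465 higher (3.22e-07) and Il4ra 0.27 ± 0.0493 higher (0.000305). None of these calls was lost with a library left out. Il2rg differed by -0.13 ± 0.0439 (adjusted p = 0.0282), a call that was lost with DESeq2 (adjusted p = 0.0704) and in 7 of 10 leave-one-out fits (adjusted p up to 0.138), all but those without a library of 100 pM 21h10 or replicate 1 of 1 nM 21h10. The intervals were -0.23 to -0.02 for Il2rb, -0.37 to 0.02 for Il15ra, -0.05 to 0.19 for Il7r and -1.92 to -0.05 for Il9r, none of which passed after adjustment. Il2rb passed when scaled by mapped reads (-0.17, adjusted p = 0.0203) and without replicate 1 of 1 nM 21h10 (-0.20, adjusted p = 0.00356). Without replicate 1 of 1 nM mIL-21, which had 95.6 RPKM of Il7r against 79.4 in its duplicate, Il7r passed (0.18, adjusted p = 0.0106).

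At 10 nM, none of the 8 members passed in edgeR, DESeq2 or limma, and 0.00726% of all genes did, which is 1 gene in edgeR, against 12 in DESeq2 and 0 in limma (which did not test Il9r). Without the filter on low counts 179 genes passed, and over 100 with the compared groups alone, and no member was among them. At an unadjusted p under 0.05 edgeR had 1208 genes, among them 1 member, Il2ra, at 0.17 (95% interval 0.01 to 0.33, adjusted p = 0.554). The interval was -0.12 to 0.22 for Il21r, -0.29 to 0.03 for Il2rg, -0.25 to 0.14 for Il4ra and -0.13 to 0.23 for Il7r, so differences as large as those of Il2ra and Il21r at 1 nM lay outside the intervals of these genes, whereas the interval of Il9r, -3.39 to 2.27, left room for almost any change. At 100 nM, 3 members differed, against 8.52% of all genes. Il4ra was 0.72 ± 0.0921 (adjusted p = 0.000128) and Il2ra 0.64 ± 0.0768 (7.14e-05) higher with 21h10, with no overlap between the duplicates. Il2rg was lower, at -0.27 ± 0.0766 (adjusted p = 0.0397), which was lost without any 1 library of either group compared or of 10 nM 21h10 (adjusted p up to 0.217). Il21r, the receptor chain for both cytokines, differed by 0.07 (-0.10 to 0.24).

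**Figure D3:**
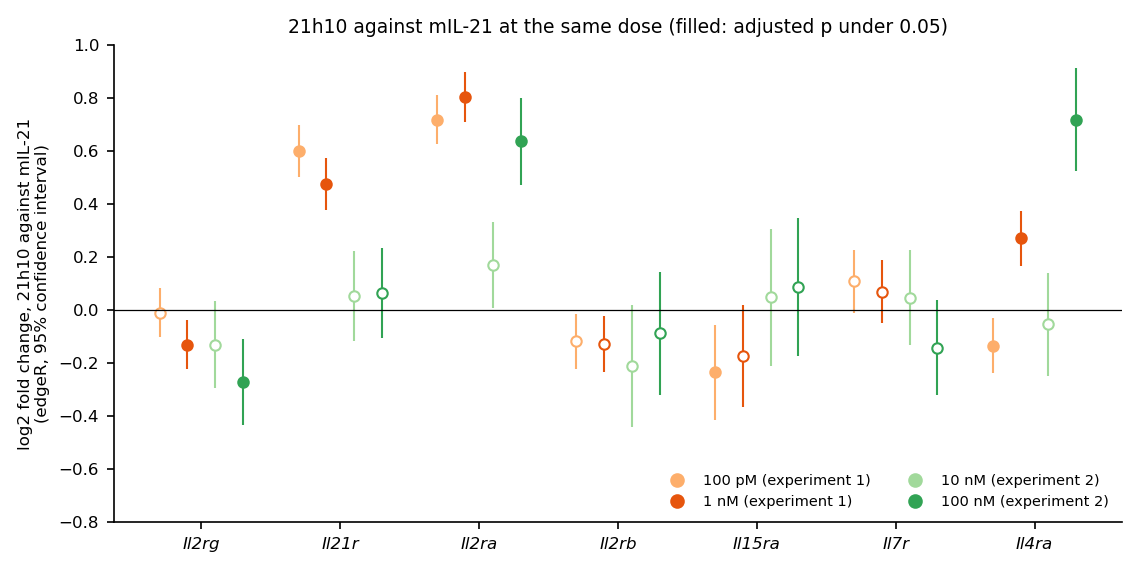
Difference between 21h10 and mIL-21 at the same dose (log2 scale, positive where 21h10 was higher) for 7 members, with the 95% confidence interval; filled points passed the adjusted threshold. Il9r is left out for its wide intervals. Il21r passed at 100 pM and 1 nM and Il2ra at 100 pM, 1 nM and 100 nM. For Il4ra the values are -0.13 and 0.27 at 100 pM and 1 nM in experiment 1. They are -0.05 and 0.72 at 10 nM and 100 nM in experiment 2.

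A lower dose of 21h10 was also set against a higher dose of mIL-21. Between 100 pM 21h10 and 1 nM mIL-21, 0.737% of all genes differed and 1 of the 8 members, Il2ra, at -0.29 ± 0.044 (adjusted p = 0.00229), a call lost without either library of 100 pM 21h10 (adjusted p = 0.0506 and 0.0602). The intervals of the other members were -0.25 to -0.05 for Il21r (adjusted p = 0.231), -0.27 to -0.06 for Il4ra (0.194), -0.24 to -0.01 for Il7r (0.47), -0.08 to 0.10 for Il2rg, -0.19 to 0.02 for Il2rb and -0.32 to 0.04 for Il15ra. The interval of Il9r was -0.53 to 0.90. Il4ra passed without a library of 1 nM 21h10 and Il7r without replicate 2 of 1 nM mIL-21. For 6 of the 8 members the estimate lay below 0, that is, with less RNA at 100 pM of 21h10 than at 1 nM of mIL-21. The median of the members was -0.13 and that of all genes -0.002. All these estimates come from the same libraries, so the count says little about the family by itself.

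The members also differed in how they followed the dose of a cytokine. From 100 pM to 1 nM of mIL-21, 4 members passed, against 34.5% of all genes: Il2ra rose by 1.01 ± 0.0445 (adjusted p = 1.69e-11), Il21r by 0.75 ± 0.0472 (1.48e-09) and Il7r by 0.24 ± 0.0567 (0.00381), and Il9r changed by -2.14 ± 0.285 (1.62e-05). The Il7r step was lost without replicate 1 of 1 nM mIL-21 (0.13, adjusted p = 0.0663) and with mapped reads (0.12, adjusted p = 0.128). Il4ra, which had already more than doubled at 100 pM, moved by 0.03 (-0.07 to 0.14). From 100 pM to 1 nM of 21h10, 6 members passed, against 39.2% of all genes: Il2ra (1.09 ± 0.0444, adjusted p = 3.46e-12), Il21r (0.63 ± 0.0463, 7.68e-09), Il4ra (0.44 ± 0.0492, 1.39e-06), Il7r (0.19 ± 0.0563, 0.0108), Il2rg (-0.14 ± 0.0438, 0.0184) and Il9r (-1.16 ± 0.395, 0.0271). The last 3 were each lost without replicate 2 of 1 nM 21h10 or replicate 2 of 100 pM 21h10, and those of Il2rg and Il9r also without replicate 1 of the latter (adjusted p up to 0.106, 0.102 and 0.234).

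From 10 nM to 100 nM of mIL-21, no member and 0% of all genes passed in edgeR, nor did any in DESeq2 or limma, while 14 genes and no member passed without the filter on low counts; at an unadjusted p under 0.05 there were 361 genes and no member. From 10 nM to 100 nM of 21h10, 5.33% of all genes passed and 2 members, Il4ra (0.68 ± 0.0921, adjusted p = 0.000302) and Il2ra (0.56 ± 0.0768, 0.000359), while Il21r changed by -0.06 (-0.23 to 0.11). Whether the gap between the cytokines itself changed with dose was tested as an interaction. Between 100 pM and 1 nM it changed for 18.4% of all genes and for 1 member, Il4ra (0.41 ± 0.0696, adjusted p = 0.000586), and between 10 nM and 100 nM for 0.922% of all genes and again for Il4ra alone (0.77 ± 0.13, adjusted p = 0.00645), with Il2ra at 0.47 ± 0.108 (adjusted p = 0.0569). Il2ra passed here with DESeq2 (0.48, adjusted p = 0.00161), without the filter on low counts (0.45, 0.0082) and with the compared groups alone (0.47, 0.0127), and Il4ra did not pass with limma (adjusted p = 0.108). The Il4ra interaction at the high doses was lost without replicate 1 of 100 nM mIL-21, replicate 2 of 10 nM 21h10 or replicate 1 of 100 nM 21h10 (adjusted p up to 0.0657), and that of Il2ra passed without either unstimulated library (0.46, adjusted p = 0.0107 and 0.011). The gap in Il21r moved by -0.13 from 100 pM to 1 nM (interval -0.27 to 0.01) and did not pass. Averaged over the 4 treatments, the response itself differed between the experiments for 64.7% of all genes and for 7 of the 8 members, all but Il2rb. It was larger in experiment 2 for Il21r, by 0.88 ± 0.074 (adjusted p = 1.01e-09), for Il2ra and for Il2rg, whereas for Il4ra it was smaller, at -0.35 ± 0.0856 (adjusted p = 0.00122). No change of a member that had passed turned its sign under another scaling, filter, transcript, test or set of libraries. Some that had not passed did: with mapped reads the difference of Il21r between the cytokines was -0.04 at 10 nM and -0.01 at 100 nM, where TMM gave 0.05 and 0.07.

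Levels per length put the chains in an order that changed with treatment. In unstimulated cells of experiment 1 the order was Il2rb, Il2rg, Il2ra, Il7r, Il21r, Il4ra, Il15ra and Il9r, with no overlap between neighbours. In both 100 pM groups Il2rg came first, and with 100 pM mIL-21 Il4ra stood above Il21r. Il2ra led in both 1 nM groups, with 21h10 at a mean of 466 RPKM, ahead of Il2rg (216) and Il2rb (183), and in that last group Il21r also stood above Il7r. In experiment 2 Il2rg and Il2rb overlapped without cytokine, as did Il4ra and Il21r, and Il2rg led in all treated groups. Il2rb and Il2ra overlapped with mIL-21 at 10 nM and 100 nM, Il7r and Il21r overlapped in both 10 nM groups, and Il21r and Il7r overlapped with 100 nM 21h10.

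Set against the sum of the 7 ligand-specific chains, Il2rb had a smaller share in all treated groups than in the unstimulated cells of its experiment, and the chains that gained differed between treatments. The sum was 537 and 550.2 RPKM without cytokine in experiment 1 and 925 and 877 with 1 nM 21h10, and in experiment 2 it was 512 and 438 without cytokine and between 617 and 747 with it. The share of Il2rb was 43.5 and 44.4% without cytokine in experiment 1 and 21.0 and 19.6% with 1 nM 21h10, where Il2ra took 51.1 and 52.5% against 33.3 and 32.8% without cytokine. With 100 pM mIL-21 the Il2ra share was lower instead, at 26.1 and 26.6%, while that of Il4ra stood at 9.48 and 9.33% against 4.20 and 4.17%, and that of Il7r at 14.1 and 14.4% against 10.4 and 10.2%. The share of Il2rb in experiment 2 was 51.0 and 44.1% without cytokine and between 20.7 and 30.2% with it. Il21r took 7.25 to 7.46% and 8.06 to 8.30% in the unstimulated cells of the 2 experiments, 8.32 to 11.3% in treated cells of experiment 1 and 14.3 to 18.0% in those of experiment 2. Relative to the gamma chain, Il21r stood at 0.192 and 0.191 without cytokine in experiment 1 and at 0.466 and 0.460 with 1 nM 21h10, and Il2ra went from 0.856 and 0.863 to 2.11 and 2.21. These are ratios of RNA levels, described without a test, and say nothing of protein at the cell surface.

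**Figure D4:**
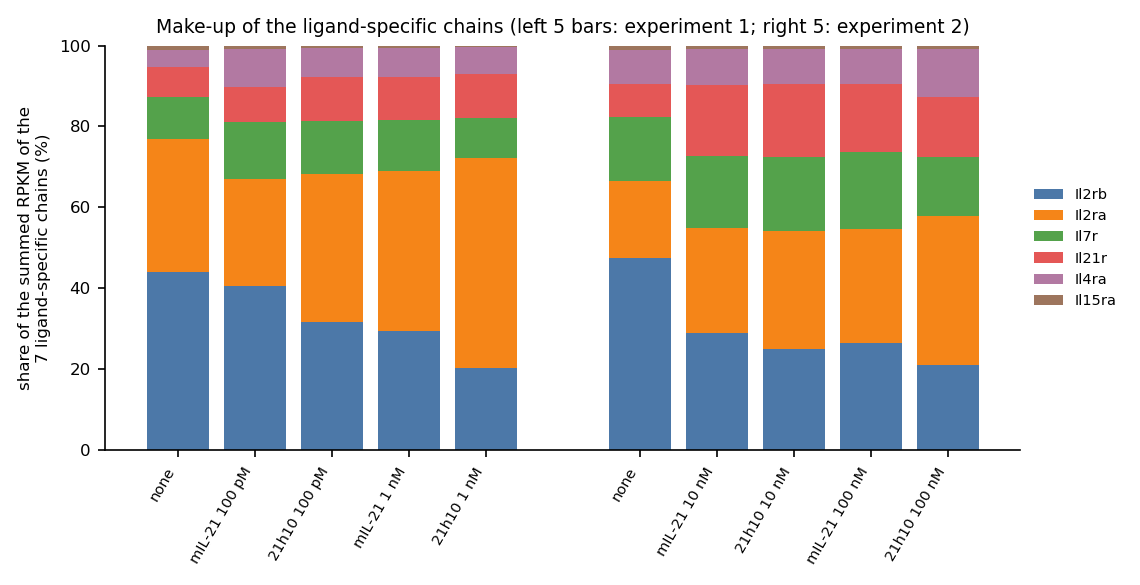
Share (%) of each ligand-specific chain in the summed RPKM of the 7 chains, as the mean of 2 libraries per group; Il9r, at most 0.081%, is too thin to be seen. Il2rb, the lowest segment, shrinks from 44.0% without cytokine to 20.3% with 1 nM 21h10 in experiment 1, and the Il2ra segment above it grows.

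Around the receptors, 23 further pathway genes were examined: 3 other receptor chains, 8 ligands, 4 Janus kinases, 4 STAT factors and 4 feedback inhibitors. Of the 3 chains, Crlf2 and Il13ra1 are partner chains of members, while Il13ra2 is a decoy chain. Of the 23, 17 had enough reads to be tested. Against unstimulated cells, 14, 15, 16 and 13 of these 17 passed in experiment 1, with 100 pM mIL-21, 100 pM 21h10, 1 nM mIL-21 and 1 nM 21h10, where 77.7, 81.6, 80.1 and 80.3% of all genes passed. Of those called, 11, 13, 14 and 11 were higher, against 49.3, 49.3, 49.7 and 47.6% of the calls over all genes. In experiment 2, 12, 11, 11 and 12 of the 17 passed with 10 nM mIL-21, 10 nM 21h10, 100 nM mIL-21 and 100 nM 21h10, where 46.2, 50.1, 46.2 and 50.8% of all genes passed. Here 11, 10, 10 and 10 of those called were higher, against 48.7, 50.3, 48.7 and 49.2% of the calls over all genes.

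Of the partner chains, Crlf2 rose in all 8 comparisons and Il13ra1 in 7. Crlf2, which forms the TSLP receptor with Il7r, went from 4.85 and 4.82 RPKM in experiment 1 to between 13.7 and 22.7 with cytokine, a log2 change of 1.43 to 2.19, and from 7.80 and 5.99 to between 11.6 and 16.6 in experiment 2 (1.08 to 1.29), each called. Il13ra1, which joins Il4ra in the receptor for IL-13, had 5 and 2 reads in the unstimulated libraries of experiment 1 and 1 and 3 in those of experiment 2. It was 0.0201 and 0.0247 RPKM with 100 pM mIL-21, 0.570 and 0.585 with 100 pM 21h10, 0.819 and 0.860 with 1 nM mIL-21, and 9.42 and 11.4 with 1 nM 21h10, but only 0.467 to 0.692 in all treated libraries of experiment 2. Its level at 1 nM was thus 3.68 higher on the log2 scale with 21h10 than with mIL-21, and at 100 nM the difference was 0.03. Il13ra2, the decoy chain for IL-13, had 1 read in 1 library and 0 in the others.

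Of the kinases, Jak3, which binds the gamma chain, rose from 22.4 and 24.1 RPKM to between 60.4 and 75.1 in experiment 1 (log2 changes of 1.40 to 1.57) and was called in experiment 2 as well (0.47 to 0.77). Jak1 was called higher in all 8 comparisons, at 0.20 to 0.73. Jak2 was called higher in the 4 comparisons of experiment 1 (0.42 to 0.82) and in none of experiment 2, and Tyk2 was called higher in 3 of experiment 1 (0.31 to 0.60) and lower in all 4 of experiment 2 (-0.73 to -0.33). The smaller changes of experiment 2 hang on the scaling: in RPKM, Jak1 was 102 and 106 without cytokine and 98.8 and 95.3 with 100 nM 21h10, a group in which it was called higher.

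Among the STAT genes, Stat3 and Stat5b were called higher in all 8 comparisons, at 0.30 to 1.87 and 0.26 to 1.33. In RPKM, Stat5b overlapped its unstimulated level in all 4 treated groups of experiment 2. Stat3 did so with 100 nM 21h10, at 49.1 and 47.8 against 52.4 and 44.6 without cytokine. Stat5a did not pass with 100 pM mIL-21 (-0.09) and reached 86.1 and 78.3 RPKM with 1 nM 21h10 from 23.3 and 24.7 without cytokine, a change of 1.86. Stat6, which serves IL-4, moved by at most 0.17 in experiment 1 and was called lower once in experiment 2, at -0.28 with 100 nM 21h10.

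Among the feedback inhibitors, Socs3 moved most, from 2.01 and 2.10 RPKM to 15.8 and 14.5 with 100 pM mIL-21 and to 203.9 and 175 with 1 nM 21h10, log2 changes of 2.81 and 6.61, and in experiment 2 from 3.72 and 3.48 to between 63.0 and 94.7 (4.46 to 4.82). Cish rose in all 8 comparisons (0.65 to 1.97) and, like Il2ra and Il4ra, was at 100 nM higher with 21h10 than with mIL-21, by 0.75. Socs2 fell in experiment 1 (-1.15 to -0.95) and rose in experiment 2 (1.33 to 1.47), and Socs1 was called higher with 1 nM of either cytokine alone (0.61 and 0.82). The ligand genes were at or near 0 apart from Il13, at 2.49 to 5.15 RPKM in experiment 1 and at most 0.602 in experiment 2, and Il4, at most 1.69. Il21 itself was at most 0.451.

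**Figure D5:**
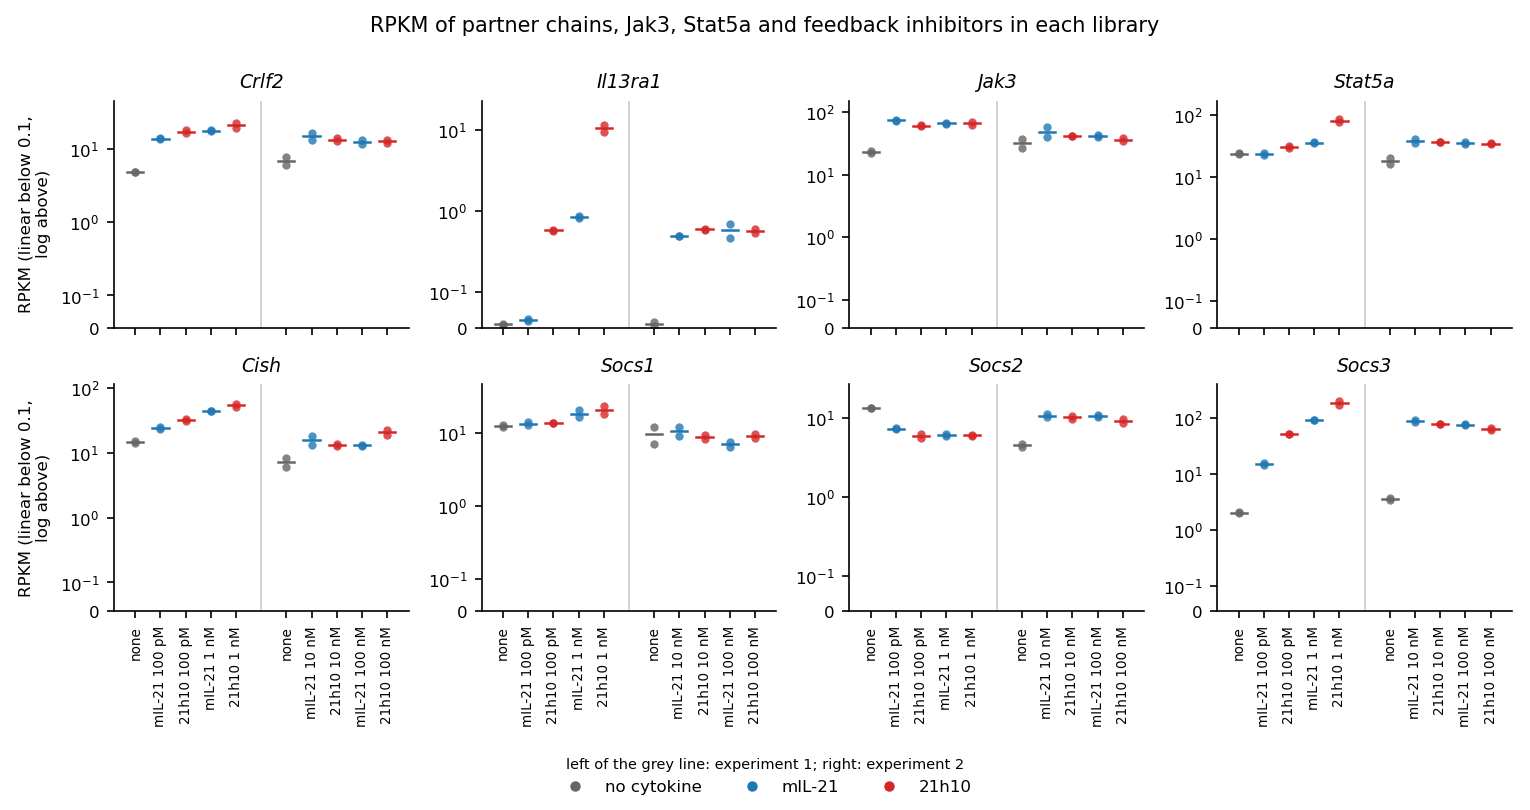
RPKM of 2 partner chains, Jak3, Stat5a and 4 feedback inhibitors in each library (vertical axes linear below 0.1 and logarithmic above). Points are libraries and short lines the mean of 2. Il13ra1 stands near 10 with 1 nM 21h10 and below 1 elsewhere, and Socs2 lies lower with cytokine in experiment 1 and higher in experiment 2.

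For each member with a mean of at least 1 RPKM in both experiments, the genes of most similar profile were sought among 10047 others, by Pearson's r of log2 depth-scaled counts (CPM) over the 20 libraries after centring each experiment. These are descriptions over libraries that share their treatments and depth. Il21r was matched by Il10 (r = 0.996), Gadd45g (0.995) and P2ry14 (0.992), Il2ra by Frmd4b (0.981), Ptpn5 (0.974) and Cdk6 (0.972), and Il7r by Vps54 (0.985), Mfsd6 (0.982) and Tpm4 (0.982). Il2rg was matched by Mark2 (0.977), Amica1 (0.973) and Sike1 (0.971), and Il4ra by Kcnk5 (0.963), Ncoa3 (0.951) and Metrnl (0.946). For Il15ra they were Rbmx (0.955), Tor1aip1 (0.943) and Zfp408 (0.941), and for Il2rb Slc1a5 (0.952), Pi4k2a (0.940) and Ppp4c (0.925). Among the members themselves, Il21r ran closest with Il7r (r = 0.931) and Il2ra (0.905), while the 2 chains of neighbouring genes differed: r was 0.768 for Il4ra and Il21r and 0.046 for Il2ra and Il15ra, which ran at -0.63 in experiment 1 and 0.926 in experiment 2.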

How the data were processed

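mRNA libraries (KAPA mRNA HyperPrep) of 20 samples, 2 in each of 10 groups, had been sequenced on a NovaSeq instrument. The submitters' processing notes list TopHat2 2.0.11, Bowtie2 2.2.6, SAMtools 0.1.8, bedtools 2.25.0 and edgeR, with the mouse build mm10. The authors deposited, for each library, whole-number read counts for 31682 RefSeq transcripts and the RPKM the authors computed from them, scaled by transcript length and mapped reads. Whether counting used strand is not given in the sources used here.

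From these files, each of the 23992 symbols was represented by its longest transcript. Counts were tested in R 4.3.3 with edgeR 4.0.16 (TMM, filterByExpr with a count minimum of 10 and a total of 15, quasi-likelihood F test, Benjamini-Hochberg adjustment, threshold 0.05), in 1 fit per experiment of 10 libraries, on 13974 genes in experiment 1 and 13772 in experiment 2. Dispersion corresponded to a coefficient of variation of 4.32% and 8.80% between libraries of a group. The spread was unequal between groups. In experiment 1 the mean chi-square per gene between duplicates, with depth allowed for, ran from 2.66 (100 pM mIL-21) to 13.4 (1 nM mIL-21). In experiment 2 it ran from 6.33 (100 nM 21h10) to 35.8 (unstimulated cells). A fit of all 20 libraries (14530 genes) compared the experiments. The SE is the absolute log2 fold change divided by the square root of F. Alternatives were DESeq2 1.42.0, no filter, limma 3.58.1 on log2(RPKM + 1), a replicate block, fits restricted to the groups compared, leaving out libraries in turn, the most-read transcript, and mapped reads in place of TMM. Steps were tested on simulated counts, with a small part of the genes changed in a single group and the same dispersion for all genes. The data here had far more genes called against unstimulated cells and unequal spread between groups, which that simulation does not cover. Il9r ratios carry exact 95% intervals for counting error alone. Similar profiles were ranked on log2 CPM with a prior count of 2. Motifs and positions came from RefSeq tables and GENCODE on GRCm38 (SciPy 1.17.1, BLAST 2.17.0). The members, the pathway and marker lists and the tests were chosen with earlier results of these data known. All members and all pathway genes are accounted for, except 1 pathway gene that is not reported here, and further genes were named as the 3 most similar in profile to each member.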

Additional observations from a re-analysis of the deposited data

Results flagged for a closer look

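Il4ra was the member whose gap between 21h10 and mIL-21 changed with dose by a test of that change: 21h10 minus mIL-21 went from -0.13 to 0.27 on the log2 scale between 100 pM and 1 nM, a change of 0.41 that turned its sign (edgeR, adjusted p = 0.000586), and from -0.05 to 0.72 between 10 nM and 100 nM, a change of 0.77 (adjusted p = 0.00645). In both steps the level moved with 21h10 (0.44 and 0.68), while with mIL-21 the estimates were 0.03 and -0.09. These calls are those of the main fit. The -0.13 at 100 pM was not called without the filter on low counts (adjusted p = 0.0702) or with a replicate block (0.0538). The change of 0.77 did not pass with limma (0.108). Il2ra passed that high-dose test with DESeq2 (0.00161) and without the filter (0.0082). It also passed with a replicate block (0.0262) and with the compared groups alone (0.0127).

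The mean response to cytokine differed between the experiments for 7 members, by a test of the difference in a fit of all 20 libraries, where 64.7% of all genes passed. The response of experiment 2 minus that of experiment 1 was 0.88 for Il21r, 0.80 for Il2ra, 0.75 for Il15ra, 0.56 for Il2rg and 0.20 for Il7r, and it was -0.35 for Il4ra and -1.97 for Il9r (edgeR, adjusted p between 9.32e-10 and 0.04). The value of Il7r was lost in 14 of 20 fits with a library left out (adjusted p up to 0.425) and with mapped reads (0.04, adjusted p = 0.742). Experiment and dose range cannot be told apart in these values.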

How the results depend on the processing

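Of the members' changes and differences, none turned its direction past the threshold in any alternative. Their side of the threshold was kept in 156 of 160 with DESeq2, 151 of 160 without a filter on low counts, 125 of 140 with limma (Il9r not tested), 145 of 160 with mapped reads, 160 of 160 with the most-read transcript and 1591 of 1680 with a library left out, and 10 of 147 left it with the compared groups alone. For 21h10 against mIL-21 at 100 pM, the 5 members called became 3 without the filter and 3 to 7 with a library left out. For the change of that gap from 10 nM to 100 nM, the 1 member called became 2 with DESeq2, 2 without the filter, 2 with the compared groups alone, 0 with limma and 0 to 2 with a library left out. With a library left out, the 1 member called between 100 pM of 21h10 and 1 nM of mIL-21 became 0 to 2, and the 6 called between 1 nM and 100 pM of 21h10 became 3 to 6. The causes were not tested. Duplicate numbers showed no pairing of the samples in experiment 1, where correlations of same-numbered deviations lay between -0.062 and 0.029. Those of experiment 2 ran from -0.167 to 0.227. The 3 of 20 pairs of groups over 0.1 joined its unstimulated, 100 nM mIL-21 and 100 nM 21h10 groups. Whether the numbers pair the samples of experiment 2 is not settled by these values. With duplicate number as a replicate block, 158 of 160 kept their side: Il4ra was no longer called between 21h10 and mIL-21 at 100 pM (adjusted p = 0.0538), and Il2ra was called for the change of that gap from 10 nM to 100 nM (adjusted p = 0.0262), where 2 members were thus called. Scaling by mapped reads lowered the share of calls that were higher from 50.9% to 28.4% for 21h10 against mIL-21 at 100 pM, from 51.9% to 41.1% at 1 nM and from 47.0% to 30.2% at 100 nM. The same scaling took it from 51.9% to 26.1% for the step from 100 pM to 1 nM of mIL-21, from 51.4% to 38.0% for that of 21h10, and from 45.4% to 58.7% for the difference of the steps. Depth limits Il9r, with 0 to 11 reads in treated libraries of experiment 2, and duplicates limit every test to 2 values a group.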
